A study of Homo sapiens with 6 samples.

Results

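Interferon-stimulated genes were followed after knockdown of GSE1 in A549, an epithelial cell line from a human lung adenocarcinoma. The set holds 40 genes, taken as the rows of the deposited table whose gene symbol equals a name on a fixed list of interferon-stimulated genes that leaves out the RNA sensors and the genes of antigen presentation. All 40 were found, each in a single row, among 60612 genes. There were 2 groups of 3 RNA sequencing libraries. The siGSE1 cells were transfected with a small interfering RNA (siRNA) against GSE1, and the control cells with a negative control siRNA, and RNA was taken from both 48 hours later. Both groups had therefore been through siRNA transfection, and untransfected cells were not analysed here. No label gives the siRNA sequences or how many were used against GSE1. Replicates carry a number but no culture, so p-values measure only how these libraries spread, and that spread may be technical.

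Interferons are secreted proteins that cells release when they sense viral nucleic acid. Type I interferons signal through the receptor chains IFNAR1 and IFNAR2, and the lambda (type III) interferons through IFNLR1 and IL10RB, which matter most on epithelial cells. Both receptors use Janus kinases to phosphorylate STAT proteins, among them STAT2, which joins IRF9 in the factor ISGF3. ISGF3 binds the interferon-stimulated response element, a sequence built on a repeat of GAAA, and switches on genes whose products block viral RNA, translation, entry and budding.

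To show that element in the set, promoter windows from RefSeq (build GRCh38.p14), from 250 bases before to 50 bases after an annotated start, were searched on both strands for GAAANNGAAA, where N is any base and matches may overlap. Windows were matched by symbol for 33 of the 40 genes, and IFIT2, OAS2, OASL, MX2, IRF7, IFITM2 and USP18 had none. The letters occurred in at least 1 window of 23 of the 33 genes (69.7%), and in 1195 of all 27305 genes with a window (4.38%). Counted per window, 3.57% of all 35116 windows held them. They were found for all 7 genes with a window that fell in siGSE1 cells, for the 1 that rose, and for 13 of the 22 that did not pass the test. A match is a description of the sequence and not a shown binding site. For the 8 changed genes, and for IFIT5 and OAS3, which are relatives of changed genes and did not pass the test, the match nearest to an annotated start is printed here 5′ to 3′ with the searched letters in capitals.
ISG15: gggaaaggGAAACCGAAActgaagcc
IFIT1: aacctaggGAAACCGAAAggggaaag
IFIT3: ggggaaagGAAAGTGAAActgatgga
IFIT5: agcgctcaGAAACTGAAActtaagaa
OAS3: ccgggcggGAAAACGAAAccagaaat
MX1: gcagaaatGAAACCGAAActgaattg
HERC5: ctccagtgGAAAACGAAAcataatgt
PARP14: caggaaacGAAAGCGAAAgagtcaaa
DDX60: ggagaaagGAAACCGAAActcccgcc
PLSCR1: ggaaccggGAAAAGGAAAccgtgttg
On the plus strand lay those of ISG15 (chr1:1013382-1013407), OAS3 (chr12:112938454-112938479), MX1 (chr21:41420561-41420586) and PARP14 (chr3:122680802-122680827). On the minus strand lay those of IFIT1 (chr10:89392512-89392537), IFIT3 (chr10:89332470-89332495), IFIT5 (chr10:89414556-89414581), HERC5 (chr4:88457037-88457062), DDX60 (chr4:168318788-168318813) and PLSCR1 (chr3:146544669-146544694). Among the printed matches, ISG15, MX1 and DDX60 carried the same 10 letters as IFIT1, GAAACCGAAA. A match of IFIT5 that is not printed held these letters too. They also occurred for IFITM3 and IFI27, which like IFIT5 did not pass, and for EPSTI1, which was not tested. PLSCR1, the gene of the 10 that rose, carried GAAAAGGAAA. Matches with those letters, farther from the start and not printed, also occurred for HERC5, which fell, and for IFITM3, which did not pass.

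The libraries held 17521807 to 19914346 counts in siGSE1 cells and 14475992 to 20755506 in control cells, where a count is a read assigned to a gene. GSE1, the targeted gene, had 3.84, 4.06 and 3.73 FPKM in siGSE1 replicates 1, 2 and 3 and 7.37, 8.06 and 7.92 FPKM in control replicates 1, 2 and 3, a fall to 49.0% (log2 fold change -1.03, SE 0.06, edgeR adjusted p = 2.14e-08). FPKM are counts scaled by exonic length and library total. Control replicate 2 stood apart from the other control libraries in pairwise chi-square, over all genes and more so over these. Chi-square per degree of freedom over the tested members was 15.7 between control replicates 2 and 1 and 15.7 between control replicates 2 and 3, against 2.87 between control replicates 1 and 3 and 2.34 to 2.57 among siGSE1 libraries. Over all genes the 2 pairs with control replicate 2 had 10.1 and 8.97, the other control pair 4.60 and the siGSE1 pairs 2.49 to 3.32. On principal component 2 of the libraries (18.2% of variance), control replicates 1, 2 and 3 lay at -6.57, 27.58 and -22.56. Control replicate 3, the library with the fewest counts, thus lay apart from control replicate 1 as well. Given the chi-square values, calls were made with and without control replicate 2. The share of counts from the mitochondrial genome was 6.70% to 6.95% in siGSE1 libraries and 7.38% to 7.48% in control libraries, and its part in the results was not tested. Of 10 epithelial markers 7 were tested, and 3 of these fell: the keratin genes KRT8 (log2 fold change -0.26) and KRT18 (-0.25) and the reductase gene AKR1B10 (-0.33). The median log2 fold change of the 7 was -0.25, and 9.02% of all genes tested fell. CDH1, KRT19, EPCAM and ALDH1A1 did not pass. Without control replicate 2, KRT18 did not pass and ALDH1A1 rose (0.14), while 10.1% of all genes tested fell and 11.8% rose. The part of these markers in the results was not tested. The lung lineage genes NKX2-1, SFTPB and SFTPC reached at most 0.08 FPKM. Leukocytes are a rich source of interferon responses. Of 12 leukocyte markers 9 were under 1 FPKM in both groups and 4 had no count, among them TLR7, CLEC4C and LILRA4, while PTPRC, the pan-leukocyte marker, reached at most 0.01 FPKM. Summed, the leukocyte markers had 5.77 to 7.90 FPKM in siGSE1 libraries and 5.73 to 9.40 FPKM in control libraries, mostly CD14 and IL3RA. Of 9 fibroblast markers 8, and of 6 endothelial markers all 6, were under 1 FPKM in both groups.

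Interferon-stimulated genes were mostly lower in siGSE1 cells, by modest amounts. Of the 40, 36 had enough counts for testing, and of these 10 fell, 1 rose and 25 did not pass an adjusted p of 0.05 by edgeR's quasi-likelihood test, where 19.9% of all 15937 genes tested changed in either direction. The 10 that fell are 27.8% of those tested, where 9.02% of all genes tested fell. The 1 that rose is 2.78%, where 10.9% of all genes tested rose. Those that fell were ISG15 and its ligase HERC5, IFIT1, IFIT2, IFIT3, OAS2, OASL, MX1, PARP14 and DDX60, and PLSCR1 rose. The falls ran from 1.23-fold for PARP14 to 1.90-fold for MX1 and 1.91-fold for OAS2, with a median of 1.42-fold, and 0 members changed 2-fold or more. The log2 fold change was below 0 for 29 of the 36 (80.6%), against 49.4% of all genes tested, and its median was -0.27 in the set and 0.00 over all genes tested. In 14 members (38.9%) all siGSE1 libraries lay below all control libraries on TMM-scaled counts, and in 3 (8.33%) above them, against 17.4% and 18.8% of all genes tested. Without control replicate 2, 26 of the 36 (72.2%) had a log2 fold change below 0, against 48.7% of all genes. In 16 (44.4%) all siGSE1 libraries then lay below both control libraries and in 5 (13.9%) above them, against 22.7% and 24.4% of all genes. The bulk libraries cannot tell fewer cells with the transcript from less transcript per cell. Without control replicate 2 the same 10 genes fell, together with IRF9, and DTX3L rose beside PLSCR1. Among members that passed in neither fit, the sign turned without that library for OAS1 (log2 fold change 0.03), IFITM3 (0.23) and IFI44 (0.29). Values moved toward 0 by over 1.5 times for UBE2L6 (-0.08), PARP9 (-0.09), RSAD2 (-0.05), IFITM1 (-0.31), BST2 (-0.54) and IFI27 (-0.01). They moved away from 0 by over 1.5 times for STAT2 (0.16), CMPK2 (0.13), SP100 (0.09) and SP110 (-0.19). The median was then -0.16, and 10.1% of all genes tested fell and 11.8% rose. With libraries scaled to a fixed FPKM sum (TPM), 10 members fell and 3 rose (OAS3, DTX3L and PLSCR1), while 5.83% of all genes fell and 16% rose.

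**Figure D1:**
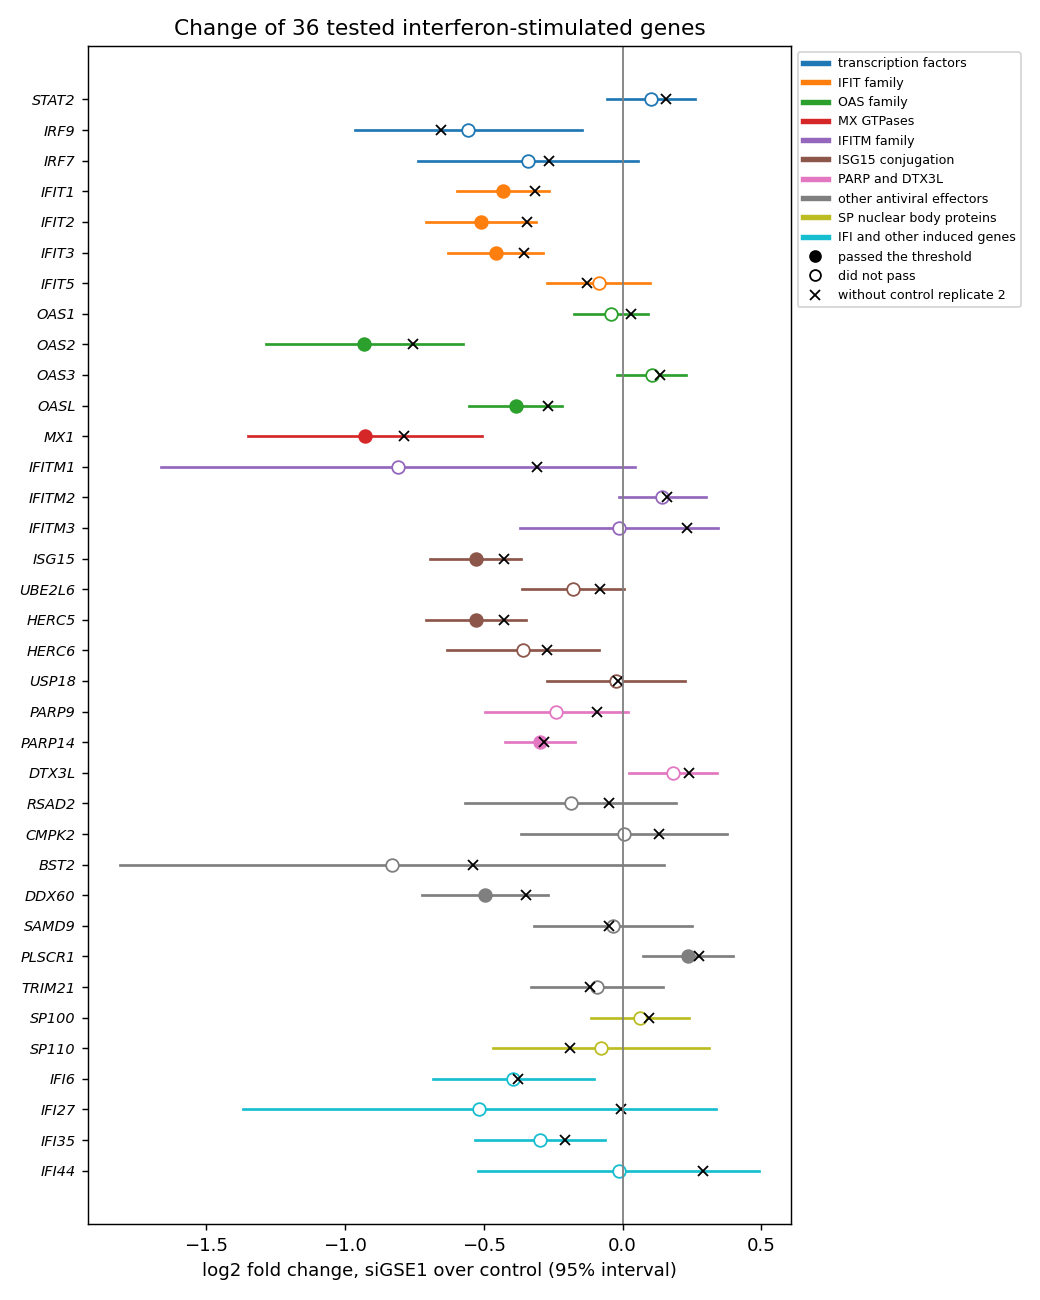
Log2 fold change of siGSE1 over control for the 36 tested genes (horizontal axis), coloured by role. Circles are edgeR estimates with 95% intervals, filled where the gene passed the threshold, and crosses leave out control replicate 2. The filled circles lie left of 0 for 10 genes and right of 0 for PLSCR1, and most crosses lie nearer to 0 than their circles.

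ISG15 is a ubiquitin-like protein that is attached to other proteins and also secreted, and it was the most abundant member. It had 107.23, 96.44 and 105.64 FPKM in siGSE1 replicates 1, 2 and 3, against 139.19, 166.38 and 132.66 FPKM in control replicates 1, 2 and 3. All siGSE1 libraries lay below all control libraries, with control replicate 2 the highest. The log2 fold change was -0.53 (SE 0.08, edgeR adjusted p = 1.60e-04), and -0.43 without control replicate 2. HERC5, the main ligase that attaches ISG15, had 7.08, 6.91 and 6.59 FPKM in siGSE1 replicates 1, 2 and 3 and 9.39, 11.00 and 8.69 FPKM in control replicates 1, 2 and 3. Its groups did not overlap either, and the log2 fold change was -0.53 with an SE of 0.08 (adjusted p = 3.83e-04), and -0.43 without control replicate 2. The ligase relative HERC6, next to HERC5 on chromosome 4, had 2.19, 2.24 and 1.71 FPKM in siGSE1 cells and 2.22, 2.86 and 2.67 FPKM in control cells (log2 fold change -0.36, adjusted p = 0.0604). The conjugating enzyme UBE2L6 had 20.40, 17.19 and 18.63 FPKM in siGSE1 cells and 18.93, 23.37 and 20.10 FPKM in control cells. USP18, which removes ISG15 and restrains the type I interferon receptor, had 7.56, 5.99 and 7.49 FPKM in siGSE1 cells and 6.69, 7.05 and 7.29 FPKM in control cells. The groups of both genes overlapped. Neither UBE2L6 (adjusted p = 0.168) nor USP18 (adjusted p = 0.920) passed the test by edgeR, and the 95% interval of the USP18 log2 fold change was -0.27 to 0.23.

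The IFIT proteins bind viral RNA that lacks the cap modifications of host mRNA, and their genes lie side by side on chromosome 10. IFIT2 had 24.24, 25.32 and 23.73 FPKM in siGSE1 replicates 1, 2 and 3, against 29.49, 41.59 and 31.52 FPKM in control replicates 1, 2 and 3. The siGSE1 values lay close together and below all control values, and control replicate 2 was far above its group. Its log2 fold change was -0.51, with an SE of 0.09 and an adjusted p of 0.00113, and -0.34 without control replicate 2. With edgeR's robust prior, which shrinks the variance estimates of unusually variable genes less, the adjusted p of IFIT2 was 0.0507. The limma tests on log2 FPKM did not call IFIT2 either. IFIT3, which stabilises IFIT1, had 26.93, 26.72 and 24.46 FPKM in siGSE1 replicates 1, 2 and 3 and 34.39, 39.94 and 30.80 FPKM in control replicates 1, 2 and 3. IFIT1 had 14.16, 14.35 and 13.75 FPKM in siGSE1 cells and 17.22, 21.52 and 17.19 FPKM in control cells. In both genes the groups did not overlap, with log2 fold changes of -0.46 for IFIT3 (adjusted p = 8.66e-04) and -0.43 for IFIT1 (adjusted p = 0.00102) by edgeR. Without control replicate 2 these were -0.36 and -0.31. IFIT5, a family member that starts beyond IFIT1 on chromosome 10, had 5.07, 5.36 and 4.94 FPKM in siGSE1 cells and 5.21, 5.06 and 5.81 FPKM in control cells. Its groups overlapped and its log2 fold change of -0.09 (95% interval -0.27 to 0.10, adjusted p = 0.547) did not pass. The difference between IFIT5 and the other IFIT genes was not tested. In the deposited coordinates IFIT1, IFIT2 and IFIT3 lie within the span of LIPA on the other strand, and whether counting used strand is not stated by any label. LIPA averaged 17.3 ± 0.58 FPKM in siGSE1 cells and 16.3 ± 0.80 FPKM in control cells (SD, n = 3 each), and in GENCODE release 29 it shared 65 exonic bases with IFIT2 and none with IFIT1 or IFIT3. IFIT2 also shared 356 exonic bases (8.68%) there with AL353751.1 on the same strand, which averaged 1.67 counts per library against 2248.5 for IFIT2.

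**Figure D2:**
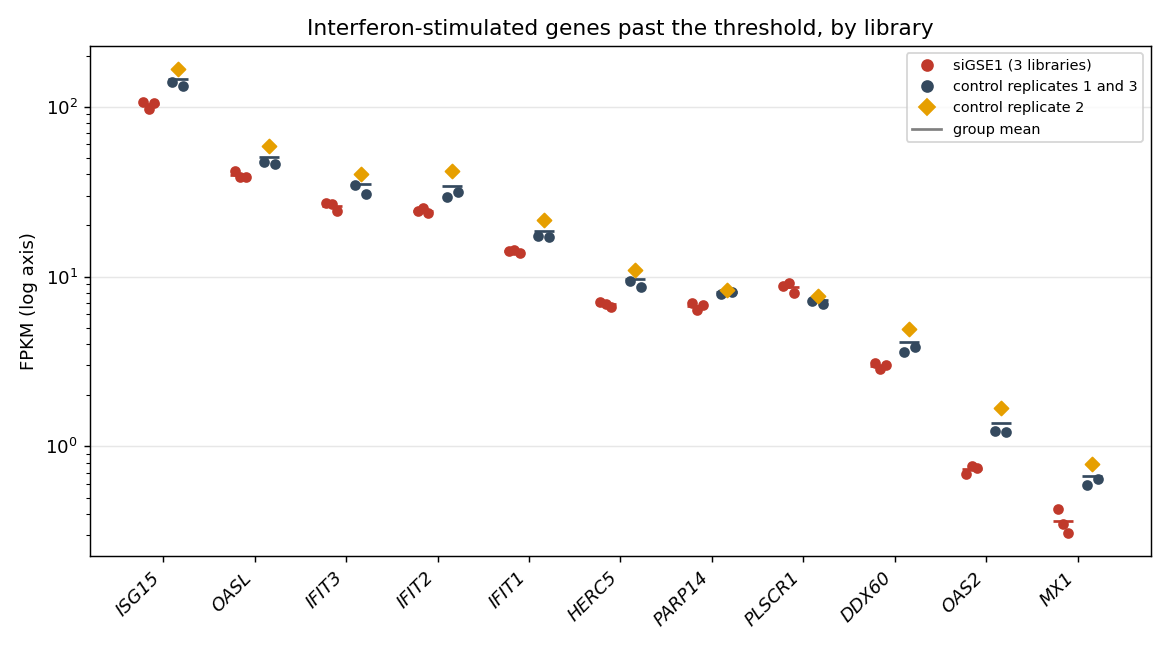
FPKM in each library (log axis) of the 11 interferon-stimulated genes past the threshold, with siGSE1 libraries left of control libraries and bars at group means. In each of the 10 genes that fell the siGSE1 points lie below the control points, and control replicate 2 (diamonds) is the highest library. For PLSCR1 the siGSE1 points lie above the control points.

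The OAS enzymes sense double-stranded RNA and make the signal that activates the ribonuclease RNase L. OAS1, OAS3 and OAS2 lie in that order on chromosome 12, and OAS2 alone of these 3 passed the test. The differences between them were not tested. OAS2 had 0.69, 0.77 and 0.75 FPKM in siGSE1 replicates 1, 2 and 3 and 1.24, 1.68 and 1.21 FPKM in control replicates 1, 2 and 3. All siGSE1 libraries lay below all control libraries, with a log2 fold change of -0.93 (SE 0.17) at an adjusted p of 9.84e-04, and of -0.76 without control replicate 2. The value rests on 76 to 94 counts per siGSE1 library and 110 to 219 per control library. OAS3, far more abundant, had 22.61, 22.37 and 24.87 FPKM in siGSE1 cells and 21.22, 22.20 and 20.43 FPKM in control cells (log2 fold change 0.10, 95% interval -0.02 to 0.23, adjusted p = 0.235). OAS1 had 21.14, 21.56 and 20.79 FPKM in siGSE1 cells and 20.64, 23.47 and 20.07 FPKM in control cells (log2 fold change -0.04, 95% interval -0.18 to 0.09, adjusted p = 0.695). Its siGSE1 values lay within the control range. OASL, a relative without the enzyme activity that lies apart on the same chromosome, had 42.08, 38.32 and 38.68 FPKM in siGSE1 replicates 1, 2 and 3 and 47.53, 58.92 and 46.24 FPKM in control replicates 1, 2 and 3. Its groups did not overlap, and the log2 fold change was -0.39 with an SE of 0.08 (adjusted p = 0.00258), and -0.27 without control replicate 2.

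MX1, a dynamin-like GTPase that traps viral nucleocapsids, was a rare transcript. It had 0.43, 0.35 and 0.31 FPKM in siGSE1 replicates 1, 2 and 3 and 0.59, 0.79 and 0.64 FPKM in control replicates 1, 2 and 3, from 53 to 65 and 80 to 142 counts per library. All siGSE1 libraries lay below all control libraries (log2 fold change -0.93, SE 0.20, adjusted p = 0.00364), and the value was -0.79 without control replicate 2. MX2, its neighbour on chromosome 21, had too few counts for testing, 8, 2 and 1 in siGSE1 replicates and 14, 11 and 0 in control replicates. DDX60, a helicase linked to RNA sensing, had 3.08, 2.84 and 3.01 FPKM in siGSE1 cells and 3.60, 4.90 and 3.85 FPKM in control cells. Its groups did not overlap, and the log2 fold change was -0.50 with an SE of 0.11 (adjusted p = 0.00371), and -0.35 without control replicate 2. OASL, MX1 and DDX60 kept their sign but did not pass when limma was run on log2 FPKM.

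PARP14, an ADP-ribosyltransferase, had 7.03, 6.33 and 6.81 FPKM in siGSE1 replicates 1, 2 and 3 and 7.93, 8.30 and 8.15 FPKM in control replicates 1, 2 and 3. Here control replicate 2 lay close to its group, and the log2 fold change, -0.30 with an SE of 0.06 (adjusted p = 0.00215), was -0.28 without it. The partners PARP9 and DTX3L, which form an enzyme complex that modifies histones and are divergent neighbours on chromosome 3, had values on either side of 0. PARP9 had 1.89, 1.64 and 1.78 FPKM in siGSE1 cells and 1.97, 2.43 and 1.71 FPKM in control cells (log2 fold change -0.24, adjusted p = 0.191). DTX3L had 6.78, 6.99 and 6.89 FPKM in siGSE1 cells and 5.35, 6.42 and 6.16 FPKM in control cells. It did not pass with all libraries (log2 fold change 0.18, adjusted p = 0.103), and rose by 0.24 on the log2 scale without control replicate 2 (adjusted p = 0.0273). The 2 genes share 217 exonic bases on opposite strands in GENCODE release 29, so a part of their reads cannot be assigned without strand.

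Of the factors that drive the response, none of 3 passed. STAT2 had 6.76, 6.71 and 6.06 FPKM in siGSE1 cells and 5.64, 6.41 and 5.83 FPKM in control cells (log2 fold change 0.10, adjusted p = 0.383). IRF9, its partner in ISGF3, had 0.89, 0.92 and 1.08 FPKM in siGSE1 cells and 1.37, 1.21 and 1.64 FPKM in control cells. Its groups did not overlap, but its log2 fold change of -0.56 (SE 0.19) had an adjusted p of 0.0534 by edgeR, and IRF9 fell by 0.65 on the log2 scale without control replicate 2 (adjusted p = 0.0229). In GENCODE release 29, 48.4% of the exonic bases of IRF9 belong also to an overlapping gene on the same strand, so its count is uncertain. IRF7, which amplifies type I interferon production, had 1.44, 1.35 and 1.31 FPKM in siGSE1 cells and 1.60, 1.86 and 1.61 FPKM in control cells (log2 fold change -0.34, adjusted p = 0.227).

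PLSCR1, a phospholipid scramblase with antiviral activity, was the single member that rose. It had 8.85, 9.21 and 8.04 FPKM in siGSE1 replicates 1, 2 and 3 and 7.14, 7.66 and 6.94 FPKM in control replicates 1, 2 and 3. Its log2 fold change was 0.24, with an SE of 0.08 and an adjusted p of 0.0395. The groups did not overlap, but the gene lost its call in 7 of 14 alternatives, among them DESeq2 and the fits without siGSE1 replicate 1, siGSE1 replicate 2, control replicate 1 or control replicate 3. Over the 14 alternatives its adjusted p reached 0.176. RSAD2, the radical enzyme viperin, had 1.69, 1.44 and 1.12 FPKM in siGSE1 cells and 1.27, 1.85 and 1.62 FPKM in control cells. CMPK2, its divergent neighbour on chromosome 2 and a mitochondrial nucleotide kinase, had 1.67, 1.23 and 1.34 FPKM in siGSE1 cells and 1.31, 1.60 and 1.20 FPKM in control cells. SAMD9, a restriction factor of poxviruses, had 2.03, 1.63 and 1.85 FPKM in siGSE1 cells and 1.55, 1.81 and 2.24 FPKM in control cells. In these 3 genes the groups overlapped. TRIM21, a cytosolic antibody receptor, had 6.81, 7.19 and 7.79 FPKM in siGSE1 cells and 8.46, 7.40 and 6.89 FPKM in control cells. BST2, or tetherin, which holds budding virions at the membrane, had 0.57, 0.42 and 0.73 FPKM in siGSE1 cells and 1.19, 1.36 and 0.38 FPKM in control cells, from 9 to 16 counts per siGSE1 library and 6 to 31 per control library. The groups of TRIM21 and BST2 overlapped too, and none of the 5 genes passed (edgeR adjusted p from 0.232 for BST2 to 0.990 for CMPK2).

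The IFITM proteins block viral fusion at membranes, and their genes form a cluster of close copies on chromosome 11. IFITM2 had 24.34, 21.83 and 21.97 FPKM in siGSE1 cells and 19.70, 20.67 and 20.24 FPKM in control cells (log2 fold change 0.14, adjusted p = 0.197). IFITM3 had 10.41, 9.89 and 10.08 FPKM in siGSE1 cells and 9.78, 13.02 and 6.90 FPKM in control cells, so the control libraries spread to both sides of the siGSE1 values. IFITM1 had 1.10, 0.88 and 0.97 FPKM in siGSE1 cells and 1.51, 2.63 and 0.81 FPKM in control cells. None of the 3 passed. IFITM1 and IFITM2 share 351 exonic bases in GENCODE release 29, and copies this similar can exchange reads, so the split between them is uncertain. SP100, a protein of nuclear bodies, had 1.77, 1.96 and 1.88 FPKM in siGSE1 cells and 1.80, 1.84 and 1.63 FPKM in control cells. SP110, also a nuclear body protein, stayed below 1 FPKM in every library, and neither passed. IFI6, a protein of the endoplasmic reticulum and mitochondria that limits virus replication, had 12.95, 10.82 and 9.78 FPKM in siGSE1 cells and 15.74, 14.76 and 12.47 FPKM in control cells (log2 fold change -0.39, adjusted p = 0.0534). IFI35 had 6.65, 7.27 and 6.57 FPKM in siGSE1 cells and 8.09, 9.23 and 7.34 FPKM in control cells (log2 fold change -0.30, adjusted p = 0.0682). IFI44 had 2.60, 2.08 and 1.90 FPKM in siGSE1 cells and 2.06, 2.96 and 1.39 FPKM in control cells, and IFI27 stayed below 1 FPKM throughout; neither passed. IFI44L, XAF1 and EPSTI1 had at most 10 counts in any library and were not tested.

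Control replicate 2 had high levels of these genes. Among the 36 tested, it was the highest of the 3 control libraries for 29 (80.6%) and the highest of all 6 libraries for 22 (61.1%), against 34.7% and 18.2% of all genes tested. Relative to the mean of control replicates 1 and 3, the median log2 level of the 36 was 0.26 in control replicate 2, and -0.12, -0.22 and -0.19 in siGSE1 replicates 1, 2 and 3, while the median over all genes tested was 0.01 or less from 0 in each library. The 40 genes together took 0.128%, 0.124% and 0.125% of the counts in siGSE1 replicates 1, 2 and 3 and 0.137%, 0.161% and 0.135% in control replicates 1, 2 and 3. Single members were also set against the mean of control replicates 1 and 3. In control replicate 2, IFI27 lay farthest above that mean, by 1.20 on the log2 scale, then IFITM1 by 1.16 and BST2 by 0.90. IFI44 by 0.79 and IFITM3 by 0.66 came next. Each of these genes had its lowest control level in control replicate 3, which lowers that mean. Counts in control replicates 1, 2 and 3 were 31, 54 and 11 for IFI27, 29, 51 and 11 for IFITM1 and 27, 31 and 6 for BST2. In contrast, IRF9, SP110 and IFIT5 had their lowest control level in control replicate 2. All 10 genes that fell had their highest level in that library. With it left out, or any other library left out in turn, the same 10 genes fell in each of the 6 fits.

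**Figure D3:**
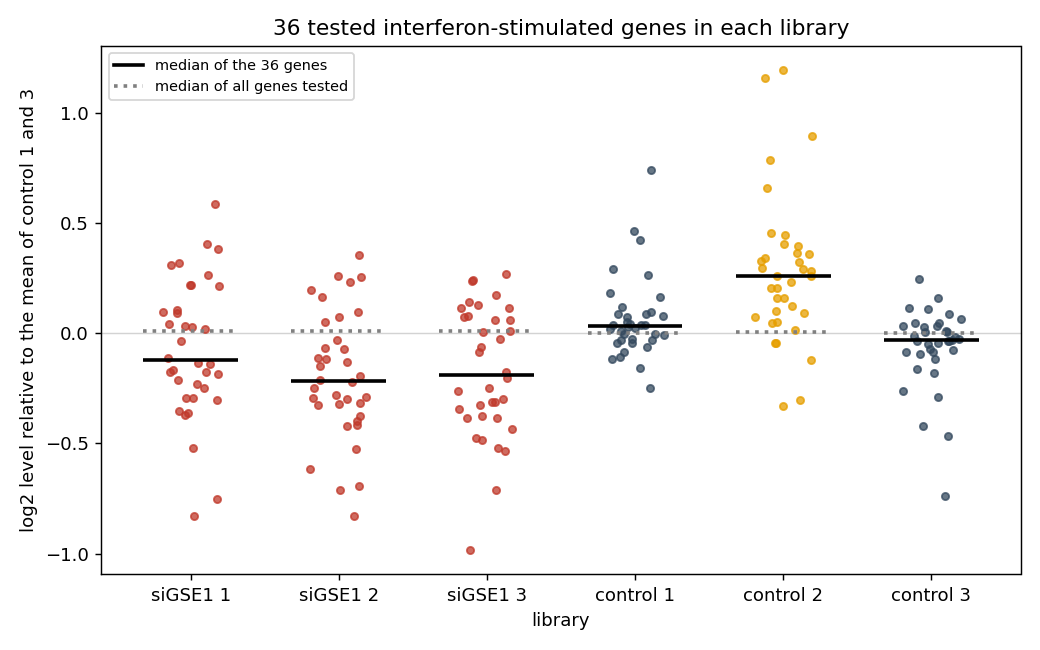
Log2 level of each of the 36 tested genes in each library relative to the mean of control replicates 1 and 3 (TMM-scaled log counts with a prior count of 2). Black lines are medians of the 36 genes and dotted lines medians of all genes tested. The black line lies at 0.26 in control replicate 2 and between -0.22 and -0.12 in the siGSE1 libraries.

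The ligands and signaling genes upstream were then read from a list of 33, 4 of which are members. Among 28 with enough counts, 7 fell (25%) and 2 rose (7.14%), and the other 19 stayed short of the threshold, against the 9.02% and 10.9% of all genes given above. The 3 lambda interferon genes fell. IFNL1 had 13.70, 12.15 and 10.50 FPKM in siGSE1 replicates 1, 2 and 3 and 15.28, 20.76 and 16.13 FPKM in control replicates 1, 2 and 3 (log2 fold change -0.55, SE 0.14, adjusted p = 0.0109). IFNL2 had 6.24, 6.91 and 4.44 FPKM in siGSE1 cells and 9.12, 10.28 and 9.08 FPKM in control cells (log2 fold change -0.73, adjusted p = 0.00566). IFNL3 had 5.63, 5.64 and 5.67 FPKM in siGSE1 cells and 6.95, 10.94 and 9.95 FPKM in control cells (log2 fold change -0.74, adjusted p = 0.00954). In all 3 the groups did not overlap, and without control replicate 2 the values were -0.40, -0.66 and -0.59, each past the threshold. IFNL2 and IFNL3 are near-identical copies between which reads may be split. Summed, they had 180, 211 and 171 counts in siGSE1 replicates 1, 2 and 3 and 288, 378 and 236 in control replicates 1, 2 and 3. The type I gene IFNB1, named after its values were seen, had 2.38, 2.34 and 3.95 FPKM in siGSE1 cells and 2.79, 4.42 and 2.63 FPKM in control cells, and its groups overlapped (log2 fold change -0.22, adjusted p = 0.653). IFNE, an epithelial type I interferon gene also named after its values were seen, had 2.67, 2.77 and 2.18 FPKM in siGSE1 cells and 0.59, 1.05 and 2.29 FPKM in control cells. Its groups overlapped through control replicate 3, and its log2 fold change of 0.99 did not pass (SE 0.34, adjusted p = 0.0518), whereas without control replicate 2 it rose by 0.88 on the log2 scale (adjusted p = 0.0449). IFNG, IFNA2 and IFNK had 0 counts in all 6 libraries, where 0 counts in a single library allow an expected count of up to 3.

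The transcription factor genes IRF1 (-0.30, adjusted p = 0.0153) and IRF3 (-0.23, adjusted p = 0.0191) fell on the log2 scale by edgeR, as did the phosphatase gene PTPN6 (-0.39, adjusted p = 0.00210). Without control replicate 2 these were -0.27, -0.26 and -0.32, each past the threshold, still lower in siGSE1 cells. The receptor chain gene IFNAR1 rose, with 7.73, 7.69 and 7.34 FPKM in siGSE1 cells and 6.49, 6.53 and 6.27 FPKM in control cells (log2 fold change 0.21, adjusted p = 0.0254, and 0.22 and past the threshold without control replicate 2), and so did the kinase gene JAK1 (0.22, adjusted p = 0.0297), named after its values were seen. JAK1 did not pass without control replicate 2 (edgeR adjusted p = 0.0620). With each limma fit 4 of the list fell, where 3.34% and 3.48% of all genes fell. In edgeR fits 0 of the list rose without siGSE1 replicate 1, 2 or 3, where 7.29%, 7.09% and 6.43% of all genes rose. With TPM scaling 5 of the list rose, where 16% of all genes rose. The lambda receptor chain IFNLR1 (0.29, adjusted p = 0.195) and the kinase TYK2 (-0.00, adjusted p = 0.989), also named after their values were seen, did not pass.

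**Figure D4:**
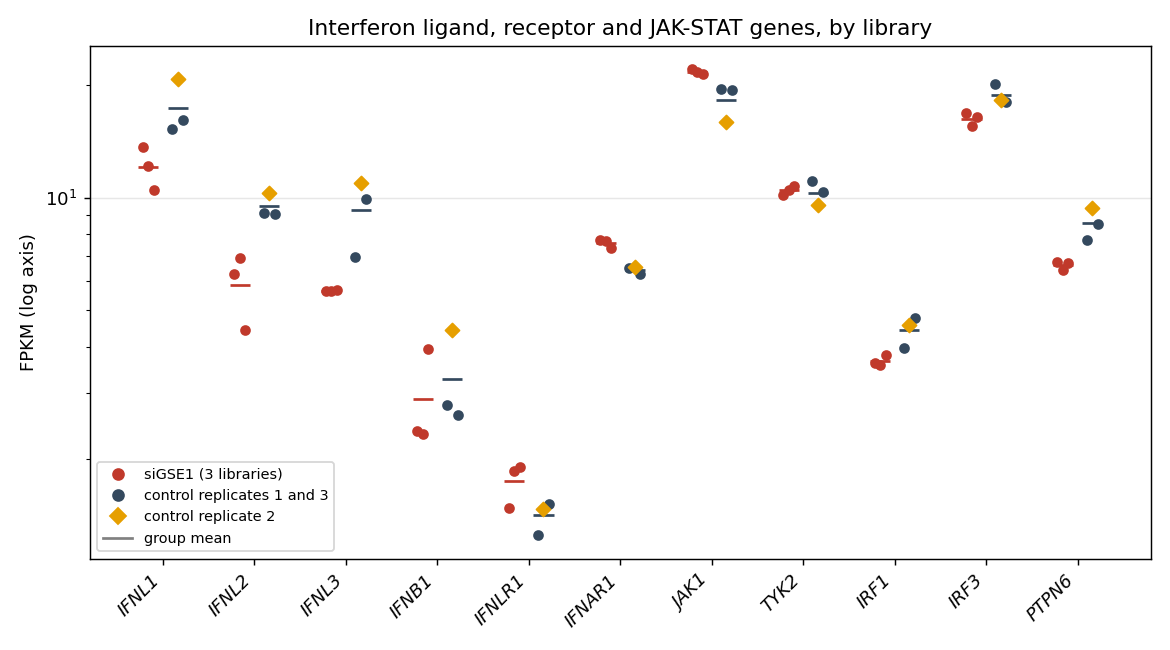
FPKM in each library (log axis) of interferon ligand, receptor and signaling genes, with siGSE1 libraries left of control libraries and bars at group means. The siGSE1 points lie below all control points for IFNL1, IFNL2, IFNL3, IRF1, IRF3 and PTPN6, above them for IFNAR1 and JAK1, and the groups overlap for IFNB1, IFNLR1 and TYK2.

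A further list of 62 interferon-inducible genes outside the set held more that fell than rose. Among 57 with enough counts 19 fell (33.3%) and 1 rose (1.75%), while 37 stayed short of the threshold, with a median log2 fold change of -0.14. The 19 include IRF1, already counted among the upstream genes that fell, so the counts of the lists are not separate. Those that fell with small adjusted p-values included the cyclin gene CCND3 (log2 fold change -0.44), the tryptophanyl-tRNA synthetase gene WARS1 (-0.38), ZC3HAV1, which encodes an RNA-binding antiviral protein (-0.26), BATF2 (-1.02), the apolipoprotein gene APOL1 (-0.58), PARP10 (-1.07) and the helicase gene HELZ2 (-0.34). The cysteine protease gene LGMN rose by 0.18 on the log2 scale and was named after its values were seen. Its list held 0 genes that rose in each fit without siGSE1 replicate 1, 2 or 3, control replicate 1 or control replicate 3. In those fits 6.43% to 9.14% of all genes rose. Without control replicate 2, 15 fell and 2 rose, while 10.1% of all genes fell and 11.8% rose. Without siGSE1 replicate 2, 9 fell, and without siGSE1 replicate 3, 11 fell, where 5.49% and 4.99% of all genes fell. With TPM scaling 12 fell, where 5.83% of all genes fell. With each limma fit 6 fell, where 3.34% and 3.48% of all genes fell. Control replicate 2 was the highest of the 3 control libraries for 37 of the 57 (64.9%), against the 34.7% of all genes.

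Among 16 tested genes of RNA sensing, the 3 cytosolic sensor genes DDX58 (-0.39, adjusted p = 0.00236), IFIH1 (-0.46, adjusted p = 0.00653) and DHX58 (-0.89, adjusted p = 0.00585) fell on the log2 scale by edgeR, as did IRF3, while the adaptor TRAF3 (0.84, adjusted p = 1.73e-07) and the ubiquitin ligase RNF135 (0.27, adjusted p = 0.0274) rose. These are 25% lower and 12.5% higher, against 9.02% and 10.9% of all genes tested, so the share that rose is near the background. Of 19 tested genes of MHC class I presentation, HLA-B (-0.72) and its transactivator NLRC5 (-0.34) fell, and the chaperone genes PDIA3 (0.27) and CALR (0.18) rose. At 10.5% in each direction, both shares are near those of all genes tested. NLRC5 did not pass without control replicate 2 (adjusted p = 0.0576). HLA-B had 78 to 98 counts per siGSE1 library and 95 to 174 per control library. In the deposited coordinates it overlaps HLA-C on the same strand, and whether the overlap affects its count was not tested.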

How the data were processed

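Libraries were made with a TruSeq RNA kit, per the series text. The authors deposited 1 table of 60612 genes with whole-number counts and FPKM per library. Per the submitters' processing notes, the build was hg38 and the tools included HISAT2, StringTie 1.3.3b, HTSeq and edgeR, whereas the series text names STAR and DESeq2. No source used here gives the annotation release or the use of strand. Deposited FPKM equal counts divided by exonic length and library total within 0.0051 in 100% of values, so both units carry the same measurement. Columns were matched to samples by title. Counts were tested with edgeR 4.0.16 in R 4.3.3: filterByExpr (minimum count 10, minimum total 15), which left 15937 genes, TMM scaling, a model of group alone, the quasi-likelihood F test and Benjamini-Hochberg adjustment over all genes tested, with a threshold of 0.05. SE is the absolute log2 fold change over the square root of F, and overlap of groups was read on TMM-scaled counts. The common biological coefficient of variation was 7.00%, and intervals cover the spread between libraries. Alternatives used DESeq2 1.42.0, limma 3.58.1 on log2(FPKM + 1) or log2(FPKM + 0.1), other scalings and filters, a replicate block and leaving out each library. The fits were tested on simulated data. The members and lists were chosen with earlier results of these data known. Every member is named. Of each pathway list, up to 8 genes past the threshold with the smallest adjusted p are named, of which 1 is not reported here, and others are identified as named after their values were seen. No protein sequences were used here.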

Additional observations from a re-analysis of the deposited data

How the results depend on the processing

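Leaving out each library in turn, edgeR called 10 to 13 of the interferon-stimulated genes lower and 0 to 2 higher, with a median log2 fold change of -0.33 to -0.16. Over all genes tested 1863 to 3562 changed, with 4.99% to 10.1% lower and 6.43% to 11.8% higher. The same 10 genes fell in each of these 6 fits. With limma on log2(FPKM + 1), 6 members fell and 0 rose, and the median was -0.13. In that fit 3.34% of all genes fell and 5.54% rose, 1789 in total. With limma on log2(FPKM + 0.1), 6 fell and 0 rose, while 3.48% of all genes fell and 5.7% rose, 1851 in total. IFIT2, OASL, MX1 and DDX60 lost their calls there. DESeq2 called 10 lower and 0 higher, while 8.45% of all genes fell and 9.32% rose. At an unadjusted p under 0.05, 1 member was higher with DESeq2, 3 with each limma fit and 1 or 2 in the fits without siGSE1 replicate 1, siGSE1 replicate 2, control replicate 1 or control replicate 3, in which 0 passed. TPM scaling gave 10 lower and 3 higher, and over all genes 929 lower and 2544 higher, so 73.3% of changed genes rose against 54.6% in the main test. It moved the median of all genes by 0.06. Without TMM, without a low-count filter and with the robust prior, 10, 12 and 12 members fell and 1 rose each time. In that order 7.59%, 4.66% and 9.55% of all genes fell and 12.6%, 6.17% and 11.1% rose. IRF9 passed with the robust prior, and HERC6 and IFI6 with that prior and without the filter. No sign of a called gene reversed in any alternative. Same-numbered libraries showed no detectable shared deviation (r over genes of 0.02, -0.02 and 0.00). These values cannot show whether such libraries shared a culture or batch. With the replicate block, 11 members fell, 1 rose and 3097 genes changed, a shift of 1 member call. That fit had 8.67% of all genes lower and 10.8% higher. GSE1 fell in every alternative. BST2 and IFITM1, with under 20 counts per siGSE1 library, had 95% intervals of -1.81 to 0.15 and -1.66 to 0.05 on the log2 scale. Their control libraries spread from 6 to 31 and from 11 to 51 counts. Changes of modest size in these genes could have been missed.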
